A study of Mus musculus with 6 samples.

Results

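Messenger RNA of 10 genes that store, export, take up or sense iron was followed in sorted Kupffer cells, macrophages that live in the liver sinusoids. The genes were taken by symbol from a table of read counts, and all 10 were among its 15458 rows. Each of the 10 also passed the filter on low counts that left 13120 genes to be tested. They are the exporter Slc40a1, the ferritin chains Fth1 and Ftl1, the ferritin receptor Ncoa4, the uptake and transport genes Tfrc, Steap3, Slc11a2 and Slc11a1, and the sensing genes Fbxl5 and Ireb2. The cells came from livers of wild type C57BL/6 mice carrying tumours of Hepa1-6, a mouse hepatoma line, 18 days after implantation. In the control group, KC_EV, the tumour cells carried an empty vector, and in the KC_Epo group they overexpressed erythropoietin, the hormone that drives red cell formation. All mice bore a tumour, so neither group is a healthy liver, and age, sex and whether each line was 1 clone were not stated in the sources used here. Each group had 3 libraries, and the labels number the mice without saying that each library is a separate animal, so each p-value rests on the spread among libraries, which may be technical.

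Kupffer cells clear old red cells, break down their heme and return the iron to the blood. Iron leaves through ferroportin, the product of Slc40a1, or is held in ferritin shells built from the heavy and light chains that Fth1 and Ftl1 encode. Transferrin-bound iron enters through the receptor Tfrc, is reduced by Steap3 in the endosome and crosses its membrane through Slc11a2. When iron is scarce, the iron regulatory proteins, encoded by Aco1 and Ireb2, bind hairpins called iron-responsive elements. Binding in a 5′ UTR blocks translation, and binding in the 3′ UTR of Tfrc protects the messenger from decay. Read counts see the amount of messenger and not its translation.

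Because these hairpins separate the members into classes, the elements were read from GENCODE M21 transcripts (mouse build GRCm38, while the submitters' processing notes name GRCm39). The search asked for a bulged C, an upper stem of 5 pairs (G with T allowed) and a loop CAGTGN or CAGAGN, on the sense strand of a UTR. It found elements in 4 of the 10 members, against 1.46% of 21877 protein-coding genes searched in the same way. Each is shown as 30 bases in the DNA alphabet, 5′ to 3′, with the loop in capitals. The 5′ UTR elements are those of the exporter and of both ferritin chains:
Slc40a1: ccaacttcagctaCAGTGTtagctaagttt
Fth1: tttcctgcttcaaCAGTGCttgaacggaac
Ftl1: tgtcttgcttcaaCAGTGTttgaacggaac

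They lie at chr1:45925465-45925494 on the minus strand, chr19:9982731-9982760 on the plus strand and chr7:45459779-45459808 on the minus strand. The ferritin elements are identical at 27 of 30 bases, including all 10 bases of the upper stem. The Slc40a1 element shares 13 of 30 bases with each of them. The 3′ UTR of Tfrc holds 5 elements, within 580 bases on the plus strand of chromosome 16:
Tfrc element 1: tatttatcagtgaCAGAGTtcactataaat
Tfrc element 2: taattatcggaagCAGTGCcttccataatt
Tfrc element 3: acattatcgggagCAGTGTcttccataatg
Tfrc element 4: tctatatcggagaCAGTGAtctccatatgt
Tfrc element 5: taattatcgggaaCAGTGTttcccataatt

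Element 1 starts the cluster at chr16:32631159-32631188 and element 5 ends it at chr16:32631709-32631738. Elements 2 and 3 share 25 of 30 bases, as do elements 2 and 5. Slc11a2 has a 3′ UTR hairpin with 4 of the 5 upper stem pairs, a looser rule that 9.64% of genes meet. It is at chr15:100395153-100395182 on the minus strand and is carried by some Slc11a2 transcripts only, so its counts pool forms with and without it:
Slc11a2: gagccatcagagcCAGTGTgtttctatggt

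No match was found in Ncoa4, Steap3, Slc11a1, Fbxl5 or Ireb2 under either rule, which says only that these letters are not in the UTRs searched.

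Total counts ran from 23201076 to 33280754 per library, and levels below are CPM, counts divided by a TMM-scaled library size. All 14 Kupffer cell markers were detected, and their summed level was 37497 to 40263 CPM in the KC_EV libraries against 54479 to 63674 CPM in KC_Epo. Of these markers 11 rose and 1, Adgre1, fell. Markers of other cells also differed: the sum of 22 hepatocyte genes was 3336 to 4130 CPM in the KC_EV libraries against 24571, 7157 and 14720 CPM in the KC_Epo libraries. Of these 12 rose and 10 did not pass, and Alb alone gave 14665, 3996 and 8589 CPM of the KC_Epo sums. The sum of 11 erythroid genes was 31.8 to 40.7 CPM against 1075, 586 and 784 CPM, with 6 of 7 tested higher. The sum of 16 sinusoidal endothelial genes was 5267 to 6356 CPM against 2993, 1838 and 2293 CPM, with 13 lower. None of these markers was at 0 in all libraries. Their part in the results below was not tested except where a value is given.

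Of the 10 genes, 7 rose in KC_Epo, 0 fell and 3 did not pass the test (edgeR quasi-likelihood test, Benjamini-Hochberg adjustment over all 13120 genes, threshold 0.05). Among all genes tested, 16.9% passed as higher and 15.4% as lower. The same 7 genes had no overlap between groups and were higher in KC_Epo, a pattern of 24.1% of all genes, and 0 were lower without overlap, against 24.2% of all genes. The median log2 fold change was 0.61 over the 10 genes and -0.0045 over all genes tested. Together the 10 genes held 0.958 to 1.02% of counts in KC_EV and 1.23 to 1.47% in KC_Epo. In bulk RNA a change in the number of cells of a type and a change in RNA per cell cannot be told apart.

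**Figure D1:**
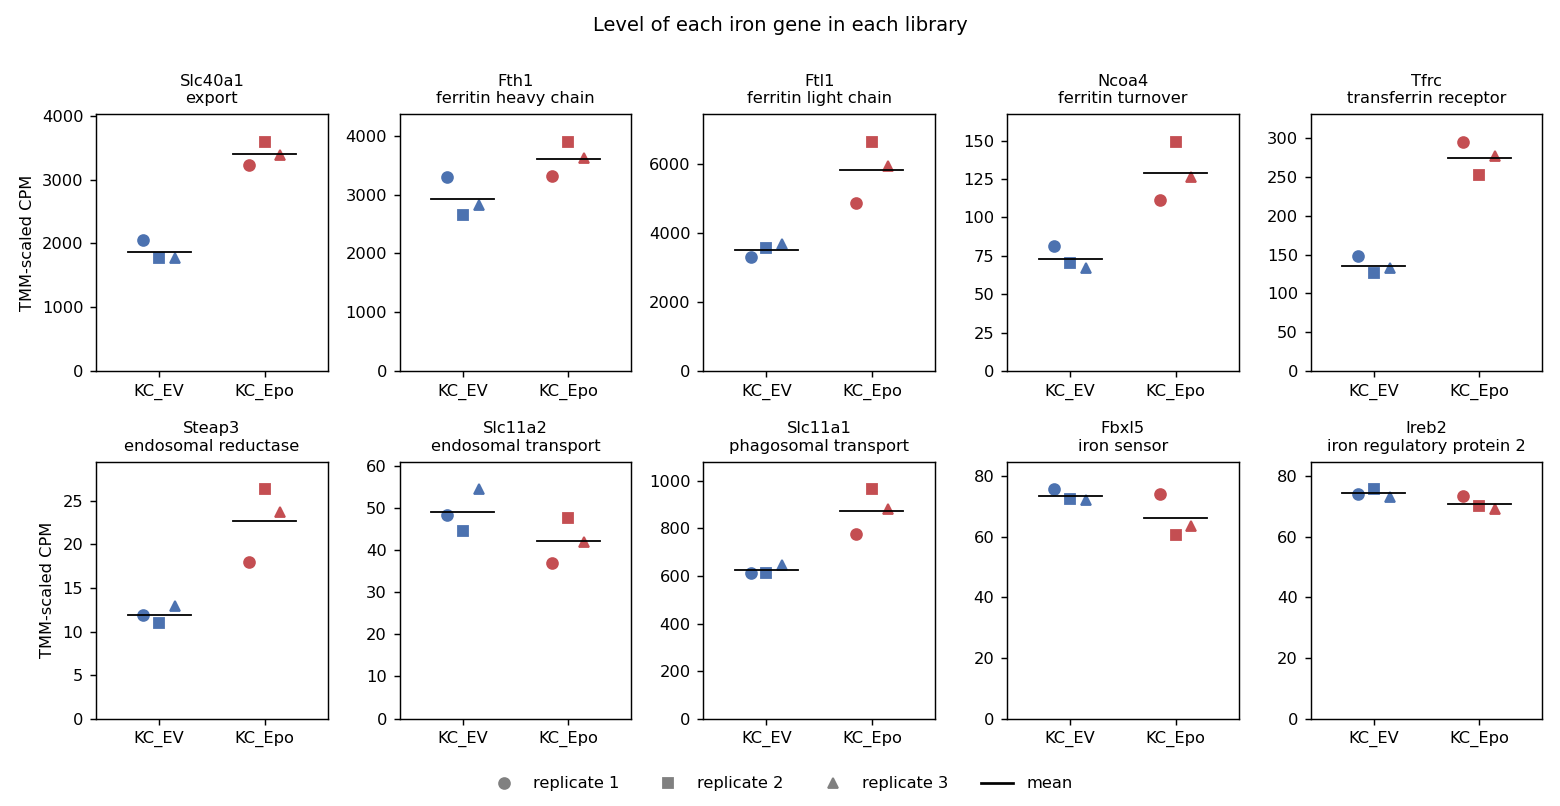
Level of each of the 10 genes in TMM-scaled CPM (vertical axis, linear, from 0) in the 3 KC_EV and 3 KC_Epo libraries, with 1 point per library and a line at the group mean. The groups do not overlap for Slc40a1, Fth1, Ftl1, Ncoa4, Tfrc, Steap3 and Slc11a1, and they overlap for Slc11a2, Fbxl5 and Ireb2.

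Slc40a1, the only known exporter of cellular iron, stood at 2055, 1769 and 1772 CPM in the KC_EV libraries, by replicate, against 3234, 3597 and 3390 CPM in the KC_Epo libraries. The lowest KC_Epo library was 1.57 times the highest KC_EV library. The log2 fold change was 0.87 ± 0.09 (SE, edgeR adjusted p = 2.08e-05), or 1.83-fold. This messenger alone took up 0.187 to 0.216% of all counts in KC_EV and 0.310 to 0.336% in KC_Epo. It ranked 195 of 13120 genes by p-value. Hamp, hepcidin, the hormone that degrades ferroportin protein, had 242 counts over KC_EV and 1 over KC_Epo, or means of 2.48 and 0.011 CPM. That is 210.1 times as many in KC_EV after scaling (exact counting interval from 37.4 to 8334). Which cells these few counts came from was not tested.

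The ferritin chains rose by unequal amounts. Ftl1, the light chain that helps nucleate the iron core, was at 3304, 3553 and 3685 CPM in the KC_EV libraries against 4870, 6643 and 5942 CPM in the KC_Epo libraries. It rose by 0.73 ± 0.11 on the log2 scale (edgeR adjusted p = 0.000417). Every KC_Epo library was above every KC_EV library, but the KC_Epo libraries spread over a coefficient of variation of 15.3%, against 5.50% in KC_EV. Reads of Ftl1 can be shared with processed copies, and the copy in the table, Ftl1-ps1, held 0.39% as many counts. Fth1, the heavy chain that oxidises iron as it enters the shell, was at 3303, 2652 and 2816 CPM in the KC_EV libraries against 3314, 3899 and 3621 CPM in the KC_Epo libraries. KC_EV 1 and KC_Epo 1 were almost level, their ratio being 1.00. The log2 fold change was 0.30 ± 0.10 (edgeR adjusted p = 0.0328). That call was lost without KC_EV 2 (0.24, adjusted p = 0.149), KC_EV 3 (0.28, adjusted p = 0.129), KC_Epo 2 (0.25, adjusted p = 0.0725) or KC_Epo 3 (0.31, adjusted p = 0.109), and with library sizes in place of TMM factors (0.15, adjusted p = 0.219).

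The ratio of Fth1 to Ftl1 counts within a library needs no scaling between libraries. It was 1.000, 0.746 and 0.764 in the KC_EV libraries, by replicate, against 0.680, 0.587 and 0.609 in the KC_Epo libraries. Each KC_Epo library was below each KC_EV library, so heavy chain messenger was lower relative to light chain messenger in KC_Epo. The mean log2 ratio differed by -0.41, or 0.753-fold (exact two-sided permutation test, p = 0.1, adjusted p = 0.167 over 5 ratios, n = 3 each). With 3 libraries against 3 the test cannot give a p below 0.1. The difference was -0.27 without KC_EV 1, the library with the highest ratio, and -0.49 without KC_EV 2.

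Ncoa4, the receptor that hands ferritin to autophagosomes so that its iron is released in the lysosome, was at 81.3, 70.2 and 67.1 CPM in KC_EV. In KC_Epo it was at 111.6, 149.4 and 126.0 CPM. The groups were apart by a ratio of 1.37 between their nearest libraries, and the log2 fold change was 0.82 ± 0.11 (edgeR adjusted p = 0.000379). Its ratio to Fth1 counts was 0.0246, 0.0265 and 0.0238 in the KC_EV libraries against 0.0337, 0.0383 and 0.0348 in the KC_Epo libraries. The receptor was therefore higher per heavy chain messenger in all KC_Epo libraries, by 0.51 on the log2 scale (exact permutation p = 0.1, adjusted p = 0.167, n = 3 each).

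**Figure D2:**
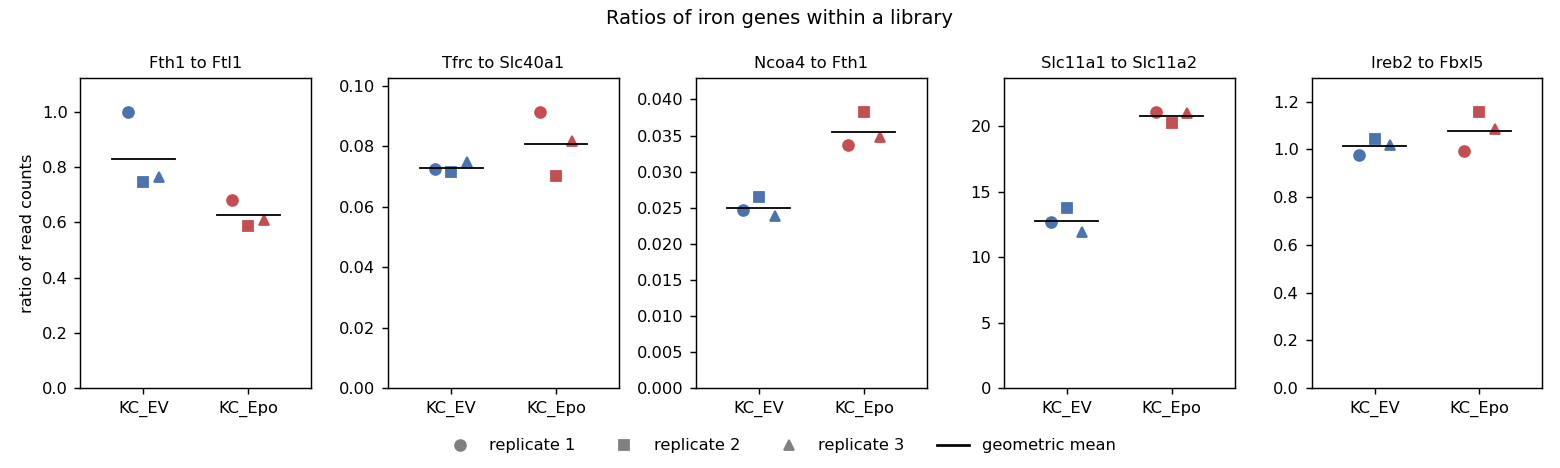
Ratio of read counts of the named gene pairs within each library (vertical axes, linear, from 0), with 1 point per library and a line at the geometric mean of each group. The groups do not overlap for Fth1 to Ftl1, Ncoa4 to Fth1 and Slc11a1 to Slc11a2, and they overlap for the other pairs.

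Of the uptake and transport genes, Tfrc, Steap3 and Slc11a1 rose and Slc11a2 did not pass. Tfrc, the transferrin receptor, was at 148.7, 126.2 and 132.3 CPM in the KC_EV libraries against 295.7, 252.6 and 277.0 CPM in the KC_Epo libraries. Its log2 fold change of 1.02 ± 0.09 (edgeR adjusted p = 5.12e-06), 2.03-fold, was the largest of the 10. The nearest libraries of the groups were 1.70-fold apart. Immature red cells also carry much Tfrc. In the same libraries the summed erythroid markers were at 586 to 1075 CPM in KC_Epo, with 6 of 7 tested genes higher. Of that list Slc4a1, the red cell anion exchanger, rose to 2.54 ± 0.96 CPM (SD, n = 3). Klf1 and Gata1, erythroid transcription factors, had 11 and 13 counts over the whole KC_Epo group, against 13 and 5 over KC_EV. What red cells gave to the Tfrc level was not tested.

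Tfrc and Slc40a1, the entry and exit genes of the list, both rose. The ratio of Tfrc to Slc40a1 counts was 0.0724, 0.0713 and 0.0746 in the KC_EV libraries against 0.0914, 0.0702 and 0.0817 in the KC_Epo libraries. KC_Epo 2 lay below all KC_EV libraries and the other two above them, so the groups overlapped (difference 0.15 on the log2 scale, exact permutation p = 0.4, adjusted p = 0.4, n = 3 each).

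Steap3, the endosomal ferrireductase, had few counts, 342 to 439 in KC_EV libraries and 520 to 819 in KC_Epo libraries. It was at 11.9, 10.9 and 12.95 CPM in the KC_EV libraries against 18.0, 26.4 and 23.7 CPM in the KC_Epo libraries. All KC_Epo libraries were higher, and the log2 fold change was 0.92 ± 0.15 (edgeR adjusted p = 0.000558).

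Slc11a1, also called NRAMP1, moves metal ions out of the phagosome of macrophages. It was at 611.9, 611.0 and 648.1 CPM in the KC_EV libraries against 778.3, 965.7 and 880.6 CPM in the KC_Epo libraries, with no overlap. Its log2 fold change was 0.49 ± 0.09 (edgeR adjusted p = 0.00117). Its relative Slc11a2, or DMT1, which carries iron out of endosomes, was at 48.3, 44.5 and 54.5 CPM in the KC_EV libraries against 36.9, 47.7 and 41.9 CPM in the KC_Epo libraries. The groups overlapped, and the value of -0.22 ± 0.11 did not pass (edgeR adjusted p = 0.133). It passed as lower without KC_Epo 2 (-0.31, adjusted p = 0.0396) and with library sizes only (-0.38, adjusted p = 0.0131).

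Within a library the 2 transporters differed in their balance. Slc11a1 had 12.7, 13.7 and 11.9 counts per count of Slc11a2 in the KC_EV libraries against 21.1, 20.3 and 21.0 in the KC_Epo libraries. The KC_Epo ratios were all above the KC_EV ratios, by 0.71 on the log2 scale or 1.63-fold (exact permutation p = 0.1, adjusted p = 0.167, n = 3 each).

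Neither sensing gene among the 10 passed the test. Fbxl5, the subunit that binds iron and directs iron regulatory proteins to destruction, was at 75.8, 72.5 and 71.99 CPM in the KC_EV libraries against 74.1, 60.5 and 63.7 CPM in the KC_Epo libraries. KC_Epo 1 lay within the KC_EV range and the other two below it. The log2 fold change was -0.15 ± 0.08 (edgeR adjusted p = 0.19), and it passed as lower without KC_Epo 1 (-0.24, adjusted p = 0.0309) and with library sizes only (-0.31, adjusted p = 0.0176). Ireb2, iron regulatory protein 2, was the steadiest of the 10 between libraries, at 74.0, 75.8 and 73.3 CPM in the KC_EV libraries against 73.6, 70.1 and 69.1 CPM in the KC_Epo libraries. Its value was -0.07 ± 0.07 (edgeR adjusted p = 0.475), and with library sizes only it passed as lower (-0.23, adjusted p = 0.0227). Counts of Ireb2 per count of Fbxl5 were 0.977, 1.05 and 1.02 in the KC_EV libraries against 0.993, 1.16 and 1.09 in the KC_Epo libraries, which overlapped (exact permutation p = 0.3, adjusted p = 0.375, n = 3 each).

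**Figure D3:**
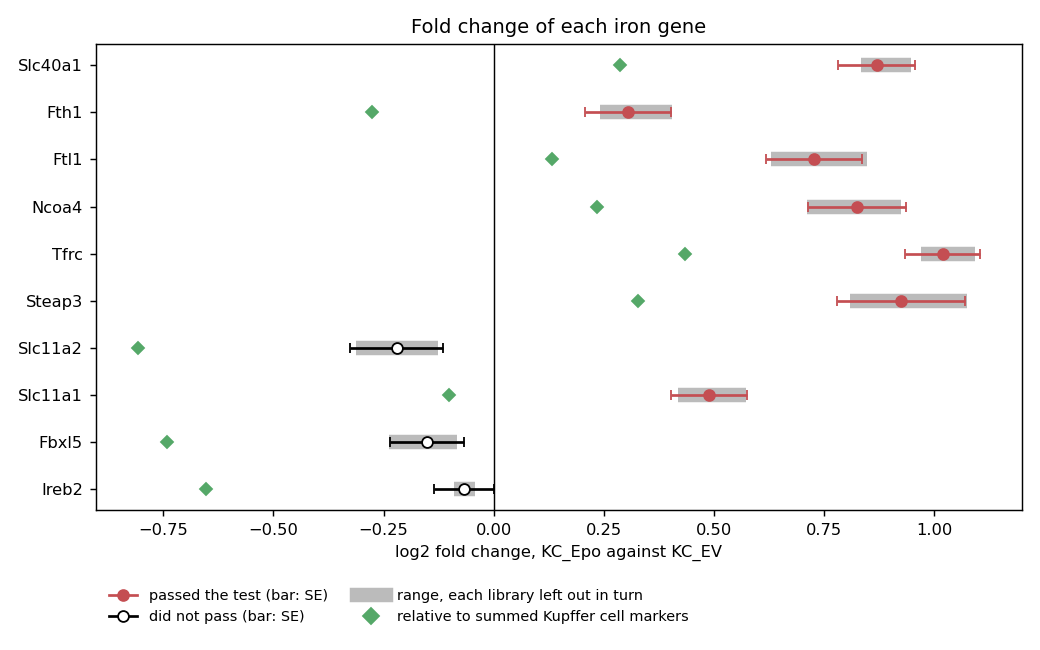
Log2 fold change of each of the 10 genes, KC_Epo against KC_EV (horizontal axis), with its SE as a bar, the range when each library is left out in turn as a grey band, and the log2 difference relative to 14 summed Kupffer cell markers as a diamond. The circles of 7 genes lie above 0, and every diamond lies about 0.58 to the left of its circle, which puts those of Fth1 and Slc11a1 below 0.

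The members were also set against the summed Kupffer cell markers of the same library. That sum was higher in KC_Epo by 0.58 on the log2 scale, so this scaling lowers every gene by about that amount and leaves the differences between genes as they were. Tfrc was higher in KC_Epo by 0.43 on the log2 scale, Steap3 by 0.33, Slc40a1 by 0.29 and Ncoa4 by 0.23, each with no overlap between groups. Ftl1 differed by 0.13 and the groups overlapped. Fth1, at -0.28, and Slc11a1, at -0.10, were below 0 on this scale, without overlap, as any gene with a smaller rise than the marker sum must be. Slc11a2, Fbxl5 and Ireb2 were at -0.81, -0.74 and -0.65. These differences carry no test, and 11 of the 14 markers rose themselves in KC_Epo.

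Per kilobase of transcript, Ftl1 had the highest level of the 10 in KC_EV, at 3630 ± 200 CPM per kilobase (SD, n = 3). Fth1 followed at 1957 ± 227, or 3147 with the shorter of its 2 principal transcripts, and then Slc40a1 at 553.5 ± 48.8 and Slc11a1 at 269 ± 9.13. Tfrc, at 27.8 ± 2.38, and Fbxl5, at 25.7 ± 0.714, overlapped in KC_EV. Ncoa4 and Slc11a2, at 17.9 ± 1.84 and 16.2 ± 1.66, overlapped too, and Ireb2 and Steap3 closed the order at 12.9 ± 0.226 and 2.32 ± 0.196. In KC_Epo the order was the same except that Ncoa4, at 31.7 ± 4.69, stood above Fbxl5, at 23.1 (21.2 to 25.9), and Tfrc, at 56.3 ± 4.42, no longer overlapped its neighbours. Slc11a2 and Ireb2 overlapped in KC_Epo, at 12.2 to 15.8 and 11.97 to 12.8. These lengths come from GENCODE M21 and not from the annotation used for counting.

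The 3 KC_Epo libraries differed among themselves in a shared order. For 7 of the 10 genes, namely Slc40a1, Fth1, Ftl1, Ncoa4, Steap3, Slc11a2 and Slc11a1, KC_Epo 1 was lowest and KC_Epo 2 highest. The summed Kupffer cell markers had that order too, as did the sums for monocytes, for B and plasma cells and for T and NK cells. Tfrc and Fbxl5 had the reverse order, which was also that of the summed hepatocyte, erythroid and endothelial markers. The sums for dendritic cells, for neutrophils and for stellate cells and fibroblasts had this reverse order as well. Ireb2 was highest in KC_Epo 1 and lowest in KC_Epo 3. Without KC_Epo 1 the 7 rises were all still called, with log2 fold changes of 0.91 for Slc40a1, 0.85 for Ftl1 and 0.97 for Tfrc.

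**Figure D4:**
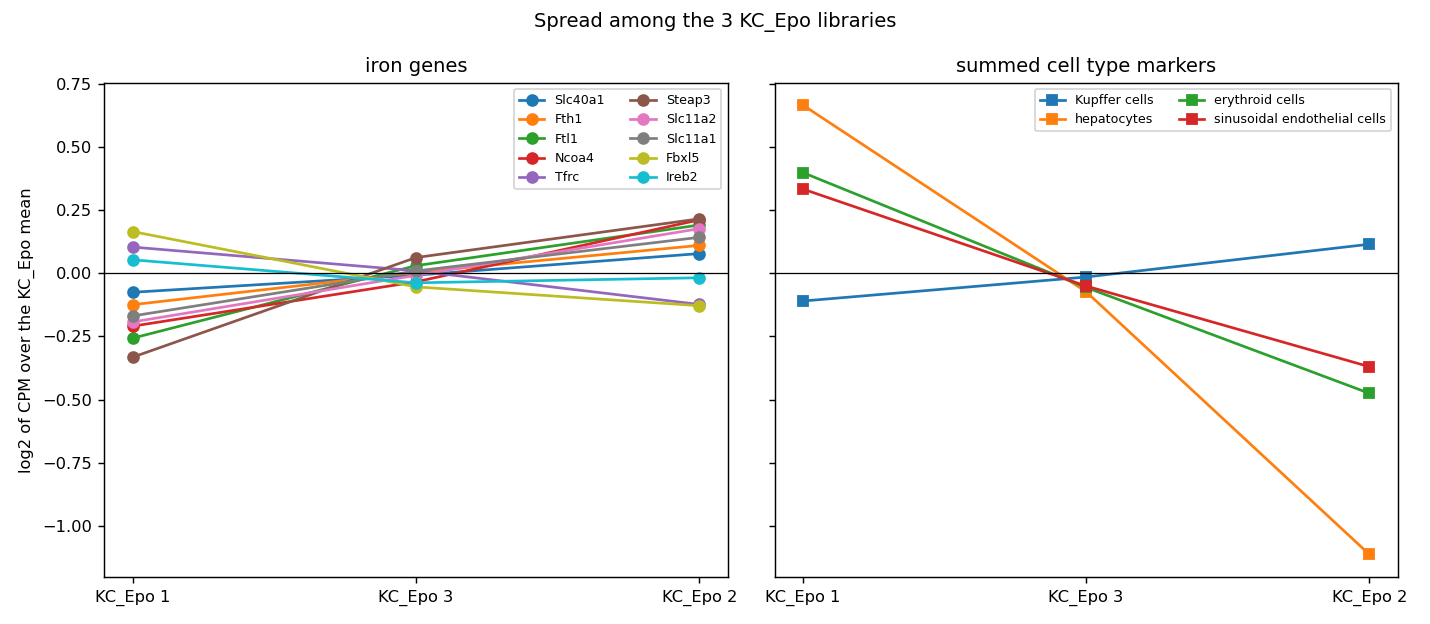
Log2 of the level in each KC_Epo library over the mean of the 3 (vertical axis) for the 10 genes on the left and for summed markers of Kupffer cells, hepatocytes, erythroid cells and sinusoidal endothelial cells on the right, with lines joining the values of 1 gene or marker list. The libraries stand in the order KC_Epo 1, 3, 2, and 7 genes and the Kupffer cell markers climb from left to right, while Tfrc, Fbxl5 and the other marker lists plotted descend.

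The wider iron system was read from lists of 91 genes in all, of which 82 could be tested, 27 rose, 10 fell and 45 did not pass. Over all genes tested 16.9% passed as higher and 15.4% as lower, the shares to set beside the counts of each list below. The 82 genes had a median log2 fold change of 0.10. Among other messengers known for iron-responsive elements, Alas2 rose, Cdc14a and Cdc42bpa fell and Epas1 did not pass. Alas2, the erythroid enzyme that starts heme synthesis, was at 2.11, 2.75 and 1.03 CPM in the KC_EV libraries. In the KC_Epo libraries it was at 34.6, 20.6 and 26.8 CPM. Cdc14a, a phosphatase, had a value of -0.78 ± 0.11 and Cdc42bpa, a kinase, -1.50 ± 0.30. Among the KC_Epo libraries, Alas2, Cdc14a and Cdc42bpa were each highest in KC_Epo 1 and lowest in KC_Epo 2. The summed hepatocyte, erythroid and endothelial markers all had that order, so it does not tell these marker lists apart. Messengers with such elements did not share a direction, with values from -1.50 to 3.80.

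Aco1, which switches between a cytosolic aconitase and iron regulatory protein 1, rose by 0.48 ± 0.08 (edgeR adjusted p = 0.000537), while Ireb2 did not pass. It was at 103.0, 88.4 and 92.6 CPM in the KC_EV libraries against 136.9, 133.1 and 127.0 CPM in the KC_Epo libraries, without overlap. In its list of 7 tested partners and ligase subunits, 1 rose, 1 fell and 5 did not pass. The one that fell was Rbx1, the ring subunit of the ligase that holds Fbxl5, at -0.25 ± 0.07, a call lost without KC_EV 2 (-0.22, adjusted p = 0.0874), KC_EV 3 (-0.25, adjusted p = 0.0633) or KC_Epo 1 (-0.20, adjusted p = 0.0555).

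Of 13 other genes of uptake and transport, 6 rose and 1 fell. Trf, which encodes transferrin, rose by 1.28 ± 0.11, from 75.7, 88.6 and 84.6 CPM to 232, 171 and 202 CPM in KC_Epo 1 to 3. Its KC_Epo libraries kept the order that the hepatocyte, erythroid and endothelial markers share. Slc22a17, a receptor for the iron-binding protein lipocalin 2, rose by 0.66 ± 0.09. Slc39a14, a transporter of free iron, rose by 0.91 ± 0.22 from 6.91 to 12.9 CPM, and Hfe, which takes part in iron sensing with the transferrin receptors, by 0.37 ± 0.08. Tfr2 at 2.34 ± 0.54 and Steap2 at 1.16 ± 0.37 were the other rises, and Slc39a8 at -0.66 ± 0.19 was the fall, all chosen after their values were seen. All lost their calls when single libraries were left out, Tfr2 without KC_EV 1, KC_EV 2, KC_EV 3 or KC_Epo 3 (adjusted p up to 0.114), Steap2 without KC_EV 1, KC_EV 2, KC_Epo 1 or KC_Epo 3 (up to 0.113), and Slc39a8 without KC_EV 1, KC_EV 2, KC_EV 3 or KC_Epo 3 (up to 0.13). Tfr2 was at 63.9, 18.7 and 39.2 CPM in KC_Epo 1 to 3, again in that shared order.

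Of the export partners, Heph, a ferroxidase that works with ferroportin, fell by 1.45 on the log2 scale from 3.55 to 1.30 CPM, and 2 of 4 tested members fell, the other being Hamp. Of 6 cytosolic iron chaperones only Cisd2, an iron-sulfur protein, rose, by 0.68 ± 0.07, and the other five did not pass. Among 15 genes that carry ferritin to the lysosome 5 rose and 0 fell. Atg7 rose by 0.60 ± 0.10, Sqstm1 by 0.48 ± 0.07 and Atg5 by 0.39 ± 0.08, all of the autophagy machinery. Ulk1, an autophagy kinase, rose by 0.28 ± 0.08 but did not pass without KC_Epo 3 (0.31, adjusted p = 0.0511), with upper-quartile factors (0.22, adjusted p = 0.054) or with library sizes only (0.12, adjusted p = 0.259), and Gabarapl1, chosen after its value was seen, had 0.24 ± 0.09. The Gabarapl1 call was lost without any library but KC_Epo 1 (adjusted p up to 0.155) in DESeq2 (adjusted p = 0.0556) and with library sizes only (0.084, adjusted p = 0.448). Mitochondrial iron and iron-sulfur genes had 1 of 11 lower and 0 higher. That gene, Slc25a28, a mitochondrial iron importer, was at -0.29 ± 0.09, and the call was lost without KC_EV 2, KC_EV 3, KC_Epo 2 or KC_Epo 3, with values from -0.30 to -0.20 and adjusted p of at most 0.131.

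**Figure D5:**
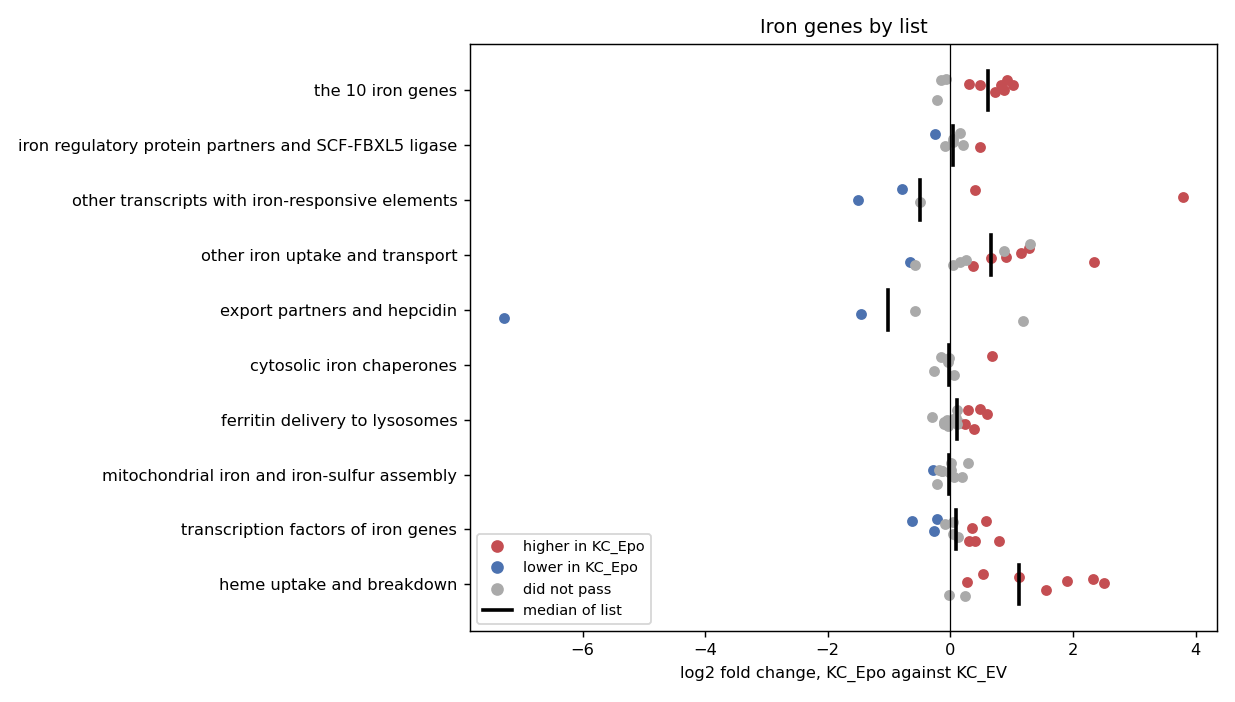
Log2 fold change, KC_Epo against KC_EV (horizontal axis), of each tested gene in the lists of iron genes, with red for genes that passed as higher, blue for lower and grey for those that did not pass, and a black bar at the median of each list. The 10 iron genes have a median of 0.61 and the heme uptake and breakdown list 1.11, while the medians of the mitochondrial and chaperone lists lie near 0.

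The list of transcription factors that act on iron genes also holds Keap1, which is not itself such a factor. The list was mixed, with 5 of 12 genes higher and 3 lower. Myc rose by 0.80 ± 0.07, Mitf by 0.59 ± 0.10 and Keap1, which restrains NRF2, by 0.40 ± 0.07. Tfeb, a regulator of lysosomal genes, rose by 0.36 ± 0.09, a call lost with library sizes only (0.20, adjusted p = 0.105). Bach1, a heme-sensing repressor of Slc40a1 and ferritin genes, was at 0.05 ± 0.08 and Spic, needed by red pulp macrophages of the spleen, at 0.13 ± 0.08, and neither passed (edgeR adjusted p = 0.672 and 0.243). Nfe2l2, which encodes NRF2, was among the 3 that fell, at -0.22 ± 0.07 (edgeR adjusted p = 0.0428), and lost its call without KC_EV 1, KC_EV 2, KC_EV 3, KC_Epo 2 or KC_Epo 3 (adjusted p up to 0.16). Mafg at 0.31 ± 0.09 completed the rises and Maff at -0.63 ± 0.17 and Hif1a at -0.27 ± 0.09 the falls, all chosen after their values were seen. Mafg lost its call without KC_EV 1 or KC_Epo 3 (adjusted p up to 0.0679) and with library sizes only (0.15, adjusted p = 0.183), Maff without KC_EV 2 or KC_Epo 3 (up to 0.0607), and Hif1a without any library but KC_EV 3 (adjusted p up to 0.111). The heme uptake and breakdown list had 7 of 9 tested members higher and 0 lower. Hmox1, the enzyme that breaks heme down, and Slc48a1, through which heme reaches it, had larger log2 fold changes than any of the 10 iron genes. They were at 1.90 ± 0.08 and 1.57 ± 0.09. Cd163, the receptor for hemoglobin bound to haptoglobin, rose by 1.11 ± 0.08 and Lrp1, which takes up hemopexin-bound heme, by 0.53 ± 0.08. Hp and Hpx, the plasma proteins haptoglobin and hemopexin that hepatocytes make, were also among the 7, and were chosen after their values were seen. In KC_Epo 1 to 3 Hp was at 1081, 394 and 683 CPM and Hpx at 1442, 470 and 887 CPM. That is the order which the hepatocyte, erythroid and endothelial markers share.

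Across the 6 libraries the log2 levels most like those of Slc40a1 belonged to Epb41l3, Cd164, Abcg3, Stom and Pcyox1, with Pearson correlations of 0.998 to 0.999. The genes most like Tfrc were Ubxn8, Arf2, Ifi207, Selenos and Saa2, at 0.997 to 0.999. With 6 libraries in 2 groups high correlations are common: 7.37% of 10060 genes of at least 5 CPM passed 0.95 with Slc40a1 and 4.99% with Tfrc. The share that passed 0.997 was not computed. Saa2, an acute-phase gene, had a log2 fold change of 4.70, against 1.02 for Tfrc, so a like order of libraries does not mean a like size of change.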

How the data were processed

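The deposited table held raw counts of reads per gene symbol, with no normalization by the authors as far as its whole-number values show. Per the labels' protocols, libraries were made from polyA RNA with a stranded TruSeq kit. The tools that the submitters' processing notes list, with no roles, are STAR (2.7.3a), HTSeq (0.11.2), Bowtie2 (2.5.1) and FastQC (0.11.8), and the build is GRCm39. How reads were assigned to strands and genes was not stated. A symbol on more than 1 row (12 symbols) stands for its deeper row.

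All genes were fitted together in edgeR 4.0.16 (R 4.3.3; TMM, filterByExpr, robust quasi-likelihood test, no block), with DESeq2 1.42.0 and limma 3.58.1 (voom) among the alternatives. The standard error came from the F statistic. Within-library ratios were tested by exact permutation. The counting interval is exact at 95% and covers counting error only. The fit was also run on counts simulated without differences in cell content between libraries. That run cannot test the fit under such differences, and its outcome is not reported here. No pair of libraries within a group was a copy of the other (chi-square per gene at least 6.03).

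The 10 genes and the lists were chosen with earlier results of these data known. Named besides the 10 were up to 4 called genes per list with the smallest adjusted p, 7 fixed genes, and the 5 genes most correlated with Slc40a1 and with Tfrc. Some genes that this rule or the marker lists hold are not reported here by name.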

Additional observations from a re-analysis of the deposited data

How the results depend on the processing

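The 7 rises kept their direction under every alternative but the one relative to Kupffer cell markers, and all but Fth1 kept their call wherever a test was run. With library sizes only, which moved the median of all genes by -0.16, 1193 genes were higher and 3616 lower, and 3 of the 10 iron genes, Slc11a2, Fbxl5 and Ireb2, were lower. Upper-quartile factors lost the Fth1 call (0.24, adjusted p = 0.0811). Higher genes made up 52.4% of the calls, 40.6% after upper-quartile scaling and 24.8% by library size alone. Leaving out each library in turn gave 2728 to 4557 called genes, 1477 to 2410 higher and 1251 to 2147 lower, with the lowest count of each kind without KC_Epo 3; of the 10 genes 6 to 7 were higher and 0 to 1 lower. Leaving out KC_EV 1 and KC_Epo 1 together, chosen after seeing the data, kept the 7 rises and made 1, Fbxl5, lower (-0.23, adjusted p = 0.0183). Relative to Kupffer cell markers, also chosen after seeing the data, Fth1 (-0.28) and Slc11a1 (-0.10) were below 0, since that scaling lowers all genes alike by 0.58. Values near 0 changed sign with scalings that move all genes alike: Bach1 was -0.012 with upper-quartile factors (shift of all genes -0.062) and -0.11 with library sizes only, and Spic -0.030 with the latter. Bach1 ran from -0.0032 (without KC_EV 3) to 0.11 when each library was left out, and the cause was not tested. Same-numbered libraries did not deviate together (correlations of -0.108, -0.148 and -0.0407). With 3 libraries per group these values cannot exclude a pairing, and the labels do not state one. With a replicate block 3358 genes were called, 1800 higher and 1558 lower, and 6 of the 10, as Fth1 was not called (adjusted p = 0.0875). With that block Nfe2l2, Slc25a28, Tfr2, Slc39a8, Gabarapl1 and Hif1a also lost their calls (adjusted p = 0.065, 0.0614, 0.115, 0.0881, 0.0906 and 0.0742). Paired sign-flip tests of the ratios cannot go below 0.25.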
